A study of Mus musculus with 8 samples.

Results

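The genes of the interleukin-6 (IL-6) cytokine family and their receptors were followed in cultured mouse astrocytes in which glutathione S-transferase mu 1 (GSTM1) had been knocked down. The 10 members were taken by gene symbol from the 54146 genes in the files: the ligands Il6, Lif, Il11, Clcf1 and Ctf1, and the receptors Il6ra, Il6st, Lifr, Osmr and Il11ra1. All 10 were found in the 8 libraries and passed the filter on low counts in every comparison. The rule that chose them is a list of names with no threshold on a measured value.

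The libraries came from primary cortical astrocytes of neonatal C57BL/6 pups, grown in culture, depleted of CD11b+ cells and carrying a lentiviral pLKO-puro vector with puromycin selection. All 4 groups therefore carried a vector. Control KD cells held a non-silencing short hairpin RNA and GSTM1 KD cells a hairpin against Gstm1. Each was harvested at the basal level, with no cytokine added, or after 50 ng/ml tumor necrosis factor alpha (TNF-α) for 6 h. Each of the 4 groups had 2 libraries, described as biological replicates, and the sources do not say whether the 2 came from separate litters, so p-values measure the spread between these libraries.

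The IL-6 family cytokines followed here signal through the shared receptor chain gp130, which Il6st encodes. IL-6 and IL-11 reach gp130 through their own alpha receptors, from Il6ra and Il11ra1, whereas leukemia inhibitory factor (Lif) and cardiotrophin 1 (Ctf1) pair gp130 with the LIF receptor chain of Lifr. Cardiotrophin-like cytokine factor 1 (Clcf1) uses the ciliary neurotrophic factor receptor, and oncostatin M uses the chain of Osmr. Receptor engagement activates Janus kinases and the transcription factor STAT3. In the brain, astrocytes are both a source and a target of these cytokines, and STAT3 activity is a known feature of reactive astrocytes.

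Depth was 17349676 to 34434633 total expected counts a library. Gstm1 itself was at 373 and 619 TPM (the length-scaled share of the library's transcripts) in control KD and 49.7 and 53.8 TPM in GSTM1 KD cells without stimulation, and at 338 and 627 against 40.5 and 39.4 TPM after TNF-α. No library went against its knockdown label. The 10 astrocyte markers summed to 3231 and 3317 CPM (counts scaled to library size) in replicate 1 of control KD, basal and TNF-α, and to 6571 to 9607 CPM in the other 6 libraries. The 11 microglial markers summed to 1.6 to 10.7 CPM, the 6 endothelial markers to 4.21 to 7.21 CPM and the 6 neuronal markers to 95.5 to 133 CPM. Within each group the replicate libraries differed by more than sampling noise (chi-square per degree of freedom 12.8 to 50.9).

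TNF-α signals through the transcription factors nuclear factor kappa B (NF-κB) and AP-1, so the promoters of the members were searched for their binding words. Of the 10 members, 9 were in the RefSeq promoter table (GRCm38.p6), which holds 250 bases before and 50 bases after each start. The words were that of NF-κB, TGANTCA for AP-1, TGACGTCA for the cyclic AMP response element, TTNNGNAA for C/EBP and TTCNNNGAA for STAT, on both strands. Shown are the 250 bases before the start, 5′ to 3′ along the gene, of the ligands that responded to TNF-α (Il6 and Lif) and of the receptor that was higher in GSTM1 KD cells in both states (Il6ra), with every match in capitals. They lie at chr5:30012864-30013113 on the plus strand, chr11:4257318-4257567 on the plus strand and chr3:89913197-89913446 on the minus strand.

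Il6: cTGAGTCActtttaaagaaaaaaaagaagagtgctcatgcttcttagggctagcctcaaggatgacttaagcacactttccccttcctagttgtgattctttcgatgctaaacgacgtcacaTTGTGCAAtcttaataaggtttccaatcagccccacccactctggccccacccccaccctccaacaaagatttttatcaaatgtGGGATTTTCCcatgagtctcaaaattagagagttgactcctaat

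Lif: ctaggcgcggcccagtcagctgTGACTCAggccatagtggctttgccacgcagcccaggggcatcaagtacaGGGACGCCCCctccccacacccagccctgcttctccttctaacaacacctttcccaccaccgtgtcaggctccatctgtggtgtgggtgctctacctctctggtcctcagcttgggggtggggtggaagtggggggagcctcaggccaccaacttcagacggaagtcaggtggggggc

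Il6ra: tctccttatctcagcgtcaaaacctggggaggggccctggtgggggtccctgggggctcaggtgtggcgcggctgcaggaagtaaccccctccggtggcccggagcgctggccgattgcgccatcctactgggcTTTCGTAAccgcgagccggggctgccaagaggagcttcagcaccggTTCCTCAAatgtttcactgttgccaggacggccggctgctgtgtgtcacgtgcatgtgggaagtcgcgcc

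In Il6 the capitals mark an AP-1 word at bases -249 to -243 from the start, a C/EBP word at -128 to -121 and an NF-κB word at -44 to -35. In Lif they mark an AP-1 word at -228 to -222 and an NF-κB word at -178 to -169, which reads as a match on both strands. Il6ra held only C/EBP words, at -116 to -109 and -70 to -63. The NF-κB word was in 8.46% of the 32851 promoters in the table, the AP-1 word in 7.81%, both together in 0.539% and the C/EBP word in 40.7%. Among the members in the table other than Il6 and Lif no NF-κB word was found, and an AP-1 word was found in the promoter of a second Il11 start (-98 to -92) and in Osmr (4 to 10 after the start). The STAT word (8.3% of promoters) and the cyclic AMP response element (1.79%) were in none. A match of letters is a description and not a binding site.

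At the basal level, control KD astrocytes held more ligand than receptor mRNA over the 10 members, and the order was led by Clcf1. Clcf1 was at 166 and 175 TPM, Il6st at 66.5 and 111 TPM and Lif at 65.6 and 49.3 TPM. Il11ra1 followed at 44.1 and 55.4 TPM and Osmr at 18.4 and 47.0 TPM, whose ranges overlapped. Il11, Ctf1 and Lifr lay between 6.37 and 11.4 TPM and Il6 at 6.96 and 4.6 TPM. Il6ra, the alpha receptor that lets a cell respond to IL-6 itself, was the lowest of the 10 at 1.13 and 1.9 TPM. Il6st was therefore 58.8 and 58.3 times Il6ra in TPM.

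**Figure D1:**
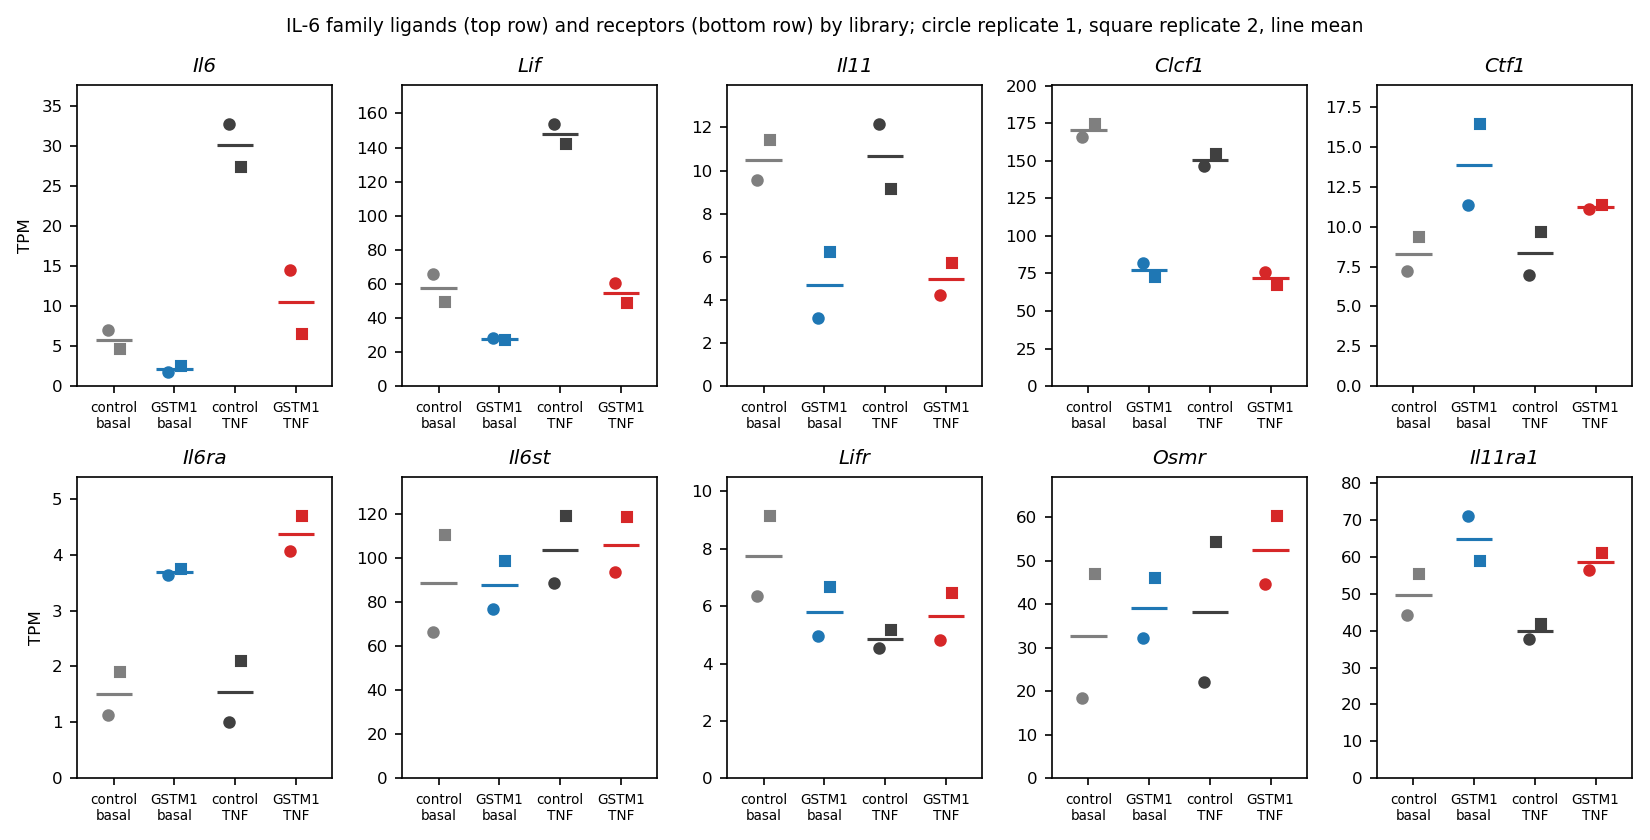
Level of each member in TPM by library, with a linear axis from 0 for each gene; columns are the 4 groups, circles replicate 1, squares replicate 2 and lines the mean of 2 libraries. Il6, Lif, Il11 and Clcf1 lie lower and Il6ra higher in both GSTM1 KD libraries than in both control KD libraries, in each state.

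The first comparison asked what GSTM1 KD did to the family without stimulation. Of the 5 ligands, Lif and Clcf1 were lower, and of the 5 receptors, Il6ra was higher, so 3 of 10 members passed an adjusted p of 0.05 in edgeR's quasi-likelihood test, 1 higher and 2 lower. Over all 14899 genes tested, 4.6% were higher and 5.62% lower. The median log2 fold change was -1.23 over the 5 ligands and 0.32 over the 5 receptors, beside 0.00 over all genes tested.

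Clcf1, the most abundant of the listed ligands in this state, was at 81.8 and 72.8 TPM in GSTM1 KD cells against 166 and 175 TPM in control KD cells. These groups were far apart relative to their spread. The log2 fold change was -1.18 ± 0.10 (SE, 95% interval -1.43 to -0.92, n = 2 per group, edgeR adjusted p = 0.0132). Lif, a cytokine known for its action on neural precursors and astrocyte differentiation, was at 28.3 and 27.2 TPM against 65.6 and 49.3 TPM. Both GSTM1 KD libraries were below both control libraries, with a log2 fold change of -1.23 ± 0.15 (SE, 95% interval -1.61 to -0.86, edgeR adjusted p = 0.019).

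Il6, the founding cytokine of the family, was at 1.8 and 2.48 TPM against 6.96 and 4.6 TPM, which are 19 and 21 reads against 111 and 48. The groups did not overlap, but the fitted difference of -1.44 ± 0.40 (SE, log2) did not pass the test (edgeR adjusted p = 0.0777). Il11 stood at 3.18 and 6.21 TPM against 9.58 and 11.4 TPM. Its groups did not overlap either, and its log2 fold change of -1.23 ± 0.34 (SE) missed the threshold with an edgeR adjusted p of 0.0764. Il11 passed in DESeq2 (adjusted p = 0.0089) and in edgeR on all 8 libraries (0.0428), and both passed in edgeR with no filter on low counts. Both also passed in edgeR with a block for replicate number (adjusted p = 0.0153 for Il6 and 0.00105 for Il11). The labels do not say what that number marks. Ctf1 was the ligand with a positive value, at 11.3 and 16.5 TPM against 7.22 and 9.36 TPM, a log2 fold change of 0.54 ± 0.29 (SE) that did not pass (edgeR adjusted p = 0.254).

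Among the receptors, Il6ra was at 3.64 and 3.75 TPM in GSTM1 KD cells against 1.13 and 1.9 TPM in control cells. The groups did not overlap and Il6ra was 2.51-fold higher (log2 fold change 1.33 ± 0.25, SE, edgeR adjusted p = 0.0344). Il11ra1, the alpha receptor for IL-11, was at 71.0 and 58.8 TPM against 44.1 and 55.4 TPM, with a log2 fold change of 0.43 ± 0.13 (SE) that did not pass (edgeR adjusted p = 0.0902). Il11ra1 passed in edgeR with no filter on low counts (adjusted p = 0.0487) and with the block for replicate number (0.0118). Il6st, the signal-transducing chain, was at 76.9 and 99.0 TPM against 66.5 and 111 TPM. The Il6st groups overlapped, and the 95% interval of its log2 fold change ran from -0.73 to 0.56. Lifr (95% interval -0.68 to 0.54) and Osmr (-0.76 to 1.41) did not pass either, though Osmr passed with the block (edgeR adjusted p = 0.0393). The control libraries of Osmr lay far apart, at 18.4 TPM in replicate 1 and 47.0 TPM in replicate 2, and the same replicate 1 had the low astrocyte marker sum. The part of the astrocyte share in the Osmr spread was not tested.

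The second comparison set the same knockdowns side by side after TNF-α. Here 6 of the 10 members passed, 2 higher (Il6ra and Il11ra1) and 4 lower (Lif, Clcf1, Il6 and Il11), where 7.26% and 8.92% of the 14593 genes tested were higher and lower. The 4 lower members were all ligands and the 2 higher members were both receptors. The median log2 fold change was -1.16 over the ligands and 0.43 over the receptors, beside -0.01 over all genes tested.

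Lif was at 60.7 and 49.0 TPM in GSTM1 KD cells against 154 and 142 TPM in control cells after TNF-α. The stimulated GSTM1 KD cells thus held Lif at about the level of unstimulated control cells, and the log2 fold change between knockdowns was -1.53 ± 0.15 (SE, 95% interval -1.91 to -1.16, edgeR adjusted p = 0.0108). Clcf1 was at 76.2 and 67.1 TPM against 147 and 155 TPM, with a log2 fold change of -1.10 ± 0.11 (SE, edgeR adjusted p = 0.0111). Il6 was at 14.6 and 6.54 TPM against 32.8 and 27.4 TPM. It was 2.81-fold lower, with a wide 95% interval of the log2 fold change from -2.41 to -0.57 and an edgeR adjusted p of 0.049, close to the threshold. Il11, known for its role in fibrosis and in bone, was at 4.22 and 5.71 TPM against 12.2 and 9.14 TPM (log2 fold change -1.16 ± 0.26, SE, edgeR adjusted p = 0.0397), a call lost with all 8 libraries (0.0507) or without replicate 1 of control KD TNF (0.0535). Ctf1 was at 11.1 and 11.4 TPM against 6.98 and 9.67 TPM and did not pass (edgeR adjusted p = 0.346).

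Il6ra was at 4.06 and 4.69 TPM in GSTM1 KD cells against 1.0 and 2.1 TPM in control cells after TNF-α. It was 3.38-fold higher (log2 fold change 1.76 ± 0.33, SE, edgeR adjusted p = 0.0286). Il11ra1 was at 56.3 and 61.0 TPM against 37.8 and 41.9 TPM, a 1.42-fold difference whose edgeR adjusted p of 0.0492 was close to the threshold. Lifr had a log2 fold change of 0.37 ± 0.13 (SE, edgeR adjusted p = 0.112). Il6st was at 93.7 and 119 TPM against 88.8 and 119 TPM, with a 95% interval of the log2 fold change from -0.50 to 0.39. Osmr was at 44.6 and 60.2 TPM against 22.1 and 54.4 TPM, so its groups overlapped. With no filter on low counts Osmr passed (log2 fold change 0.43, edgeR adjusted p = 0.0113).

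**Figure D2:**
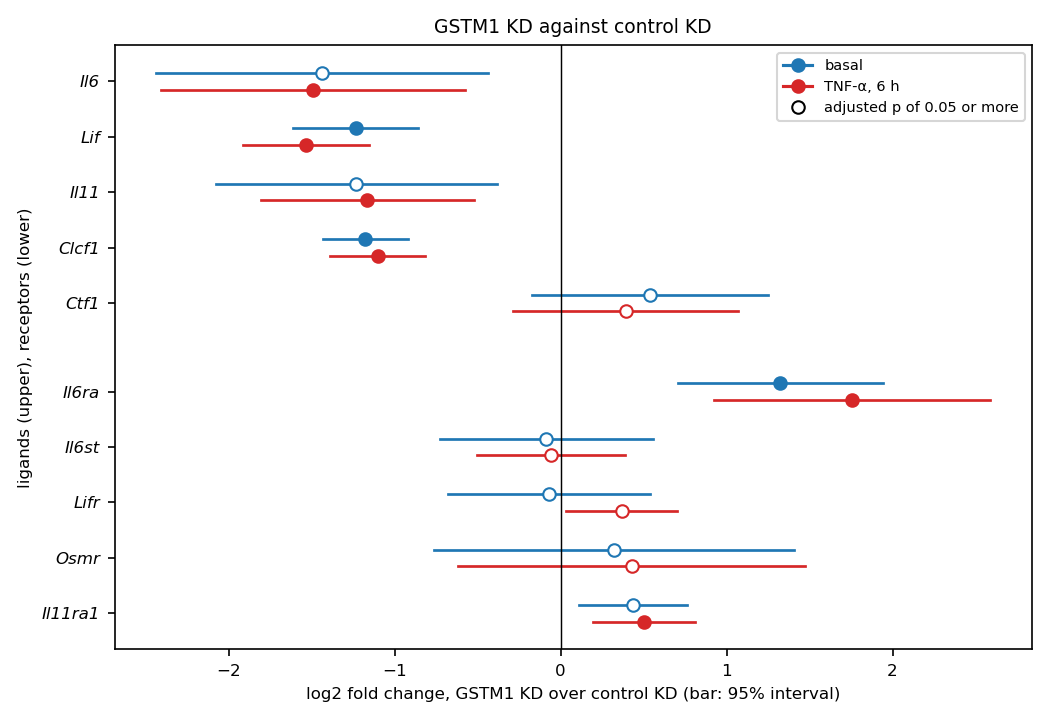
Log2 fold change of each member in GSTM1 KD over control KD astrocytes, from rounded expected counts, before (blue) and after TNF-α (red); bars are 95% intervals and open circles did not pass an adjusted p of 0.05. Il6, Lif, Il11 and Clcf1 lie between -1.53 and -1.10 in both states, and Il6ra lies at 1.33 and 1.76.

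The calls for Il6ra rested on how transcript length was handled. The mean effective length of its transcripts, as estimated per library, ran from 4045 to 5414 bases, and with that length as an offset its edgeR adjusted p was 0.0528 without and 0.0507 with TNF-α, with log2 fold changes of 1.25 and 1.46. Every call in the knockdown comparisons was lost when a GSTM1 KD library was left out. At the basal level 0 members passed without either GSTM1 KD library, and after TNF-α likewise 0 passed, while over both states the log2 fold changes lay between -1.73 and -1.20 for Lif, -1.22 and -1.002 for Clcf1 and 1.29 and 1.79 for Il6ra. That of Il6 after TNF-α moved to -2.17 without replicate 1 and to -1.04 without replicate 2. In those fits 1 and 3 genes of all passed at the basal level and, with TNF-α, none without replicate 1 and 63 higher and 31 lower without replicate 2. Without replicate 2 of control KD, 7 members passed in each state, while over all genes 2647 higher and 2609 lower of 15352 passed at the basal level and 2551 and 2477 of 15274 with TNF-α.

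Some markers of other cell types also differed between the knockdowns. The 8 fibroblast and mural markers summed to 3897 and 3670 CPM in control KD and 2061 and 1844 CPM in GSTM1 KD cells before stimulation, and to 3014 and 3263 against 1825 and 1647 CPM after TNF-α. Most of that sum was Acta2, at 3587 and 3165 against 1831 and 1497 CPM before stimulation. Of the 7 tested, 4 had negative and 3 positive log2 fold changes in each state, and Acta2 and Col1a2 were lower in both (log2 fold changes -1.02 and -1.13 at the basal level, edgeR adjusted p = 0.027 and 0.0352) and Pdgfrb was higher after TNF-α. The 8 oligodendrocyte-lineage markers summed to 524 to 742 CPM without stimulation and 467 to 651 CPM with it, lower in both GSTM1 KD libraries of each state, with Olig2 past the test. The microglial marker sum was 9.93 and 3.6 against 3.31 and 1.6 CPM without stimulation. With TNF-α its groups overlapped, at 10.7 and 2.71 against 4.67 and 2.3 CPM. Of its 4 tested genes, 4 and 3 had negative log2 fold changes in the 2 states (medians -0.94 and -0.70). The astrocyte marker S100b was lower in both states, with log2 fold changes of -1.44 and -1.71 (edgeR adjusted p = 0.0269 and 0.0387), the only one of 10 called, while 7 and 6 of the 10 had positive values (medians 0.51 and 0.28). The 6 choroid and ependymal markers overlapped between knockdowns without stimulation (106 to 162 CPM) but lay at 91.3 and 106 against 120 and 133 CPM after TNF-α. Foxj1 made up nearly all of this sum. All 3 tested had positive log2 fold changes in both states, and Folr1, at 0.48 and 0.16 against 1.55 and 2.76 CPM at the basal level, passed in both (edgeR adjusted p = 0.0476 and 0.033). In bulk libraries fewer cells of a type and less RNA per cell cannot be told apart, and the part of these cells in the ligand values was not tested.

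The third comparison asked which members responded to TNF-α within each knockdown. In control KD cells Il6 and Lif rose, 2 of 10 members, where 2.1% of 15332 genes were higher and 0.528% lower. In GSTM1 KD cells Il6 and Lif were again the members that rose, where 2.35% were higher and 0.294% lower. No receptor passed in either knockdown, though with no filter on low counts Osmr did in GSTM1 KD cells (log2 fold change 0.44, edgeR adjusted p = 0.025).

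Il6 went from 6.96 and 4.6 TPM to 32.8 and 27.4 TPM in control KD cells, a 5.87-fold rise (log2 fold change 2.55 ± 0.40, SE, edgeR adjusted p = 0.0211). In GSTM1 KD cells it went from 1.8 and 2.48 TPM to 14.6 and 6.54 TPM, a 5.76-fold rise (2.53 ± 0.45, SE, edgeR adjusted p = 0.0341). The GSTM1 KD estimate averages a pair of TNF-α libraries that lie apart, and it was 1.83 on the log2 scale without replicate 1 and 2.98 without replicate 2. Lif rose 2.56-fold in control KD cells (log2 fold change 1.35 ± 0.16, SE, edgeR adjusted p = 0.00803) and 2.11-fold in GSTM1 KD cells (1.08 ± 0.16, SE, edgeR adjusted p = 0.0177). All TNF-α libraries of a knockdown were above all its basal libraries for both genes. With the 4 control KD libraries alone neither passed in control KD cells (edgeR adjusted p 0.061 for Il6 and 0.062 for Lif). In control KD cells Il6 also lost its call without replicate 2 of control KD basal, without either control KD TNF library or without either GSTM1 KD basal library (edgeR adjusted p 0.0553 to 0.0989). In GSTM1 KD cells both genes lost it without either GSTM1 KD basal library or replicate 1 of GSTM1 KD TNF (0.121 to 0.305), and Il6 also without either control KD TNF library (0.0557 and 0.056).

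Clcf1 had a log2 fold change of -0.19 ± 0.10 (SE) in control KD and -0.09 ± 0.10 (SE) in GSTM1 KD cells and Il11 had 0.03 ± 0.32 and 0.12 ± 0.34 (SE), none past the test. The 95% interval for Clcf1 in control KD cells ran from -0.41 to 0.04. The receptors lay between -0.29 (Lifr) and 0.33 (Osmr) in control KD cells and between -0.10 (Il11ra1) and 0.45 (Osmr) in GSTM1 KD cells. The interval for Osmr in control KD cells, -0.93 to 1.58, was the widest of the receptors there.

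**Figure D3:**
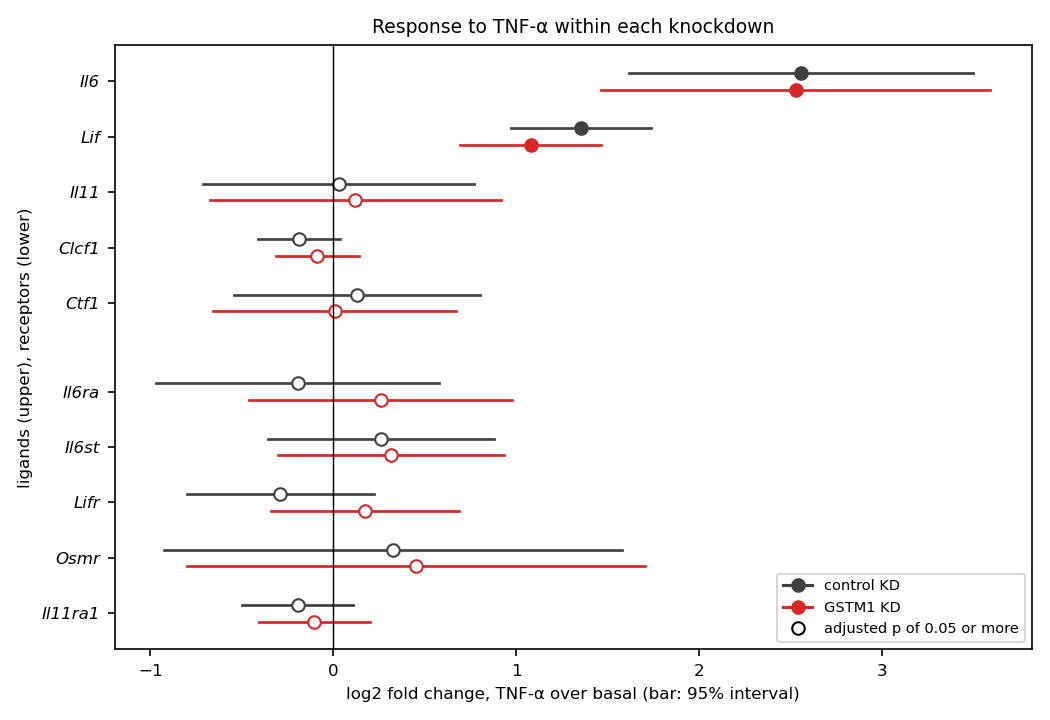
Log2 fold change of each member after TNF-α over the basal level in control KD (dark grey) and GSTM1 KD (red) astrocytes, from a fit on all 8 libraries; bars are 95% intervals and open circles did not pass an adjusted p of 0.05. Il6 (2.55 and 2.53) and Lif (1.35 and 1.08) are the members past the test in both knockdowns.

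The difference between the TNF-α responses was tested directly, as an interaction. None of the 10 members passed, and in edgeR neither did any of the 15332 genes (0 called, 0%), of which 295 had an unadjusted p under 0.05, none of them a member. Over all genes DESeq2 called 22 higher and 5 lower and edgeR with no filter on low counts 103 and 31, and each called 0 members. For Il6 the response differed by -0.03 on the log2 scale (95% interval -1.70 to 1.64) and for Lif by -0.28 (-0.81 to 0.26). The interval for Il6 spans changes of over 3-fold in either direction, so no difference was detectable at this replication, whereas the interval for Clcf1 (-0.22 to 0.42) was narrower. For Il6ra the difference was 0.45 (-0.60 to 1.51).

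With TPM as a level per length, the make-up of the listed members shifted with each factor. Ligand TPM summed to 255 and 249 in control KD cells and to 126 and 125 in GSTM1 KD cells without stimulation, and to 353 and 343 against 167 and 140 after TNF-α. Receptor TPM summed to 136 to 251 across the 8 libraries, with no separation of the knockdowns. The ratio of ligand to receptor TPM was 1.87 and 1.11 in control KD cells, 0.67 and 0.58 in GSTM1 KD cells, 2.29 and 1.54 after TNF-α in control KD cells and 0.82 and 0.56 after TNF-α in GSTM1 KD cells. It was above 1 in all 4 control KD libraries and below 1 in all 4 GSTM1 KD libraries. This split holds for the listed members only, as the sums leave out other genes of the family. Among those, the ligand Cntf ran the other way without stimulation. It was at 28.6 and 52.8 TPM in control KD and 85.5 and 85.2 TPM in GSTM1 KD cells. The ratio with such genes included was not tested.

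Clcf1 made up 58.2% to 70.0% of ligand TPM at the basal level and 41.6% to 48.0% after TNF-α. Lif took 19.8% to 25.7% before and 35.1% to 43.6% after, and Il6 1.42% to 2.72% before and 4.68% to 9.3% after. Ctf1 took 1.98% to 3.75% in the control KD libraries and 6.67% to 13.2% in the GSTM1 KD libraries. Among the receptors, Il6ra was 0.65% to 0.94% of the summed TPM in control KD and 1.75% to 2.0% in GSTM1 KD cells, and Il6st was 40.8% to 57.6% overall. Il6st was 56.8 to 88.8 times Il6ra in the control KD libraries and 21.1 to 26.4 times in the GSTM1 KD libraries.

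**Figure D4:**
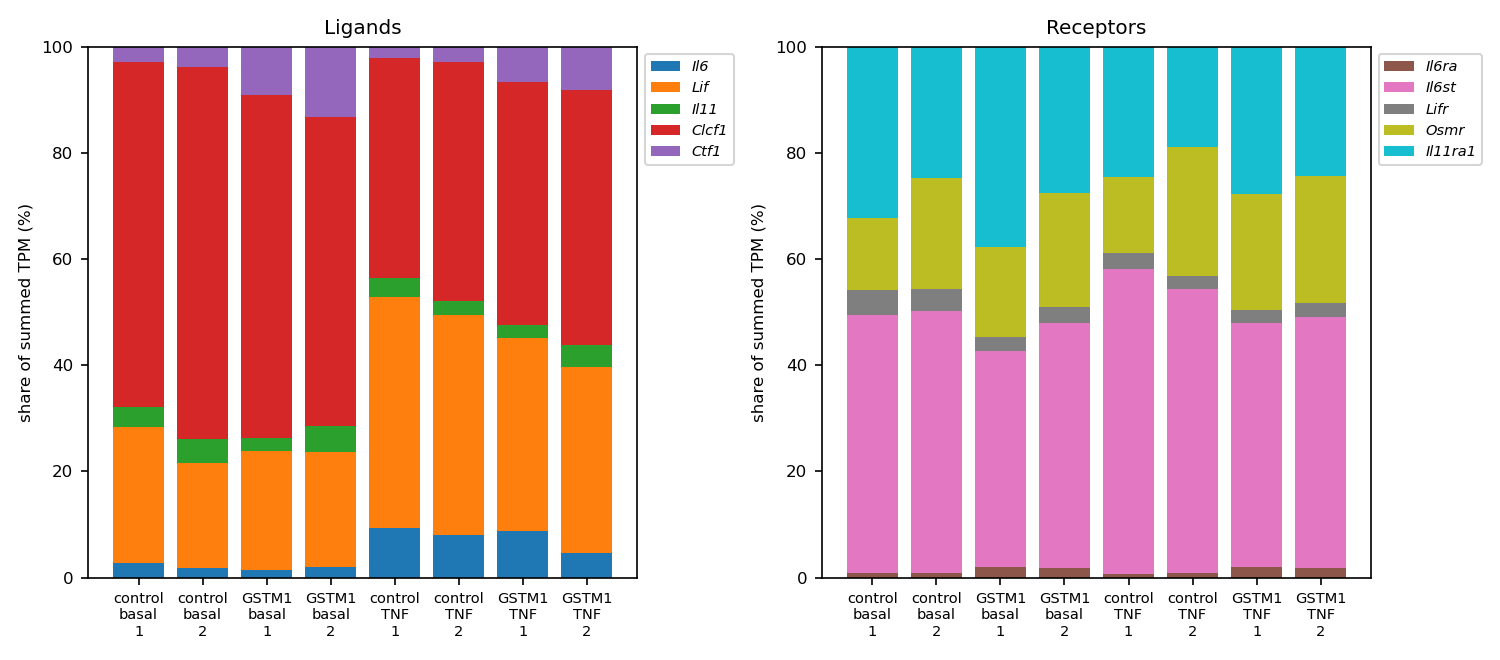
Share of each gene in the summed TPM of the 5 ligands (left) and of the 5 receptors (right), one stacked bar for each library, labelled by group and replicate number. Lif and Il6 take a larger share in the 4 TNF-α libraries, and Ctf1 and Il6ra take a larger share in the 4 GSTM1 KD libraries.

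The order of the levels among the listed members changed accordingly. In GSTM1 KD cells at the basal level Il6st (76.9 and 99.0 TPM) and Clcf1 (81.8 and 72.8 TPM) overlapped at the top, followed by Il11ra1, Osmr and Lif. In control KD cells after TNF-α, Clcf1 (147 and 155 TPM) and Lif (154 and 142 TPM) overlapped at the top, above Il6st, and Il6 overlapped Osmr. In GSTM1 KD cells after TNF-α Il6st was the highest at 93.7 and 119 TPM, ahead of Clcf1, while Il11ra1, Lif and Osmr overlapped. Il6ra was the lowest member in both control KD groups, and in GSTM1 KD cells it overlapped Il11 in both states.

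Replicates of Lifr differed in estimated transcript length as well as in reads. Its effective length ran from 4509 to 8370 bases across the libraries, so its TPM (4.55 to 9.14) and its CPM (16.8 to 27.5) do not rank the libraries alike. The lowest TPM was in replicate 1 of control KD after TNF-α and the lowest CPM in replicate 1 of control KD at the basal level.

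On the annotation of the build in the files (GRCm38, GENCODE M21), the ligand genes lie at chr5:30013114-30019981 (Il6), chr11:4257557-4272514 (Lif), chr7:4772373-4782859 (Il11), chr19:4214238-4223490 (Clcf1) and chr7:127712736-127718192 (Ctf1). The receptor genes lie at chr3:89864059-89913196 (Il6ra), chr13:112464070-112510086 (Il6st), chr15:7090614-7197489 (Lifr), chr15:6813577-6874969 (Osmr) and chr4:41699989-41769474 (Il11ra1). Counts cover their exons. For Il11 and Clcf1 the gene version in this annotation is later than that in the counts, so the exons counted may differ from those described here. Clcf1 shares 311 exonic bases (8.17% of its own) with AC109138.7 on the same strand, and reads there could be split between both. Il6ra shares 242 exonic bases (2.8%) with the antisense gene Gm42809, and Ctf1 shares 87 with Ctf2 on the other strand. The library kit keeps strand, but the strand setting of the counting is not given in the sources used here.

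Other genes of the family were mostly at or near 0. Of 12 gene entries for 11 symbols, 3 passed the filter without and 4 with TNF-α, and edgeR called none in any comparison. Cntf, the ciliary neurotrophic factor known as an astrocyte product, was at 28.6 and 52.8 TPM in control KD and 85.5 and 85.2 TPM in GSTM1 KD cells without stimulation, and at 37.0 ± 17.0 against 78.9 ± 13.0 TPM (SD, n = 2) after TNF-α. Its groups did not overlap in either state, but its log2 fold changes of 1.01 ± 0.28 and 1.03 ± 0.32 (SE) did not pass (edgeR adjusted p = 0.0742 and 0.0806). Cntf passed in both states in DESeq2 (adjusted p = 0.00571 and 0.00854) and in edgeR with no filter on low counts. When leaving out each library its log2 fold change ran from 0.64 to 1.49 at the basal level and from 0.62 to 1.60 after TNF-α. Osm, the ligand of Osmr, had 0 to 2 reads a library.

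Downstream of the receptors, of 19 genes for Janus kinases, STATs, adaptors and inhibitors, 2 were lower in unstimulated GSTM1 KD cells, and 4 lower and 1 higher after TNF-α, with medians of -0.06 and -0.05 on the log2 scale. Over all genes 5.62% were lower at the basal level, and 8.92% lower and 7.26% higher after TNF-α. Shc1, an adaptor towards the Ras pathway, and Pias1, an inhibitor of STAT signalling, were lower in both states, Pias1 close to the threshold (edgeR adjusted p = 0.0453 and 0.042, and 0.0515 and 0.0512 scaled by library size only). Shc1 had log2 fold changes of -0.73 ± 0.14 and -0.81 ± 0.11 (SE, edgeR adjusted p = 0.0348 and 0.0145). Jak2, a kinase bound to gp130, was lower after TNF-α (-0.44 ± 0.09, SE, edgeR adjusted p = 0.0385), as was the adaptor Grb2 (-0.44 ± 0.10, SE, edgeR adjusted p = 0.0397). Jak2 did not pass with the length offset (0.0502) or in the fit on all 8 libraries (0.0811).

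Stat3, the main factor downstream of gp130, was at 140 and 222 CPM in control KD and 162 and 185 CPM in GSTM1 KD cells at the basal level, with an edgeR adjusted p of 0.882. Socs3, the feedback inhibitor that binds gp130, had log2 fold changes of 0.34 ± 0.38 and 0.19 ± 0.36 (SE) in the 2 states and did not pass. Within the TNF-α responses, Tyk2 rose in both knockdowns (1.05 ± 0.15 and 1.03 ± 0.15, SE, edgeR adjusted p = 0.0151 and 0.0158), Jak2 passed in control KD cells and Socs1, a feedback inhibitor of Janus kinases, passed in GSTM1 KD cells. The response of Socs1 differed between knockdowns by 1.87 ± 0.52 (SE, log2), which did not pass (edgeR adjusted p = 1) but passed with no filter on low counts (6.49e-07), and it was 1.17 without replicate 1 of GSTM1 KD TNF. With the 4 control KD libraries alone, Tyk2 and Jak2 lost their control KD calls (0.138 and 0.156), and Jak2 also lost it in 5 of the 8 fits that left out 1 library (0.0612 to 0.123). The GSTM1 KD call of Tyk2 was lost without any 1 of the 4 GSTM1 KD libraries (0.0732 to 0.152), and that of Socs1 without either GSTM1 KD basal library (0.148 and 0.183).

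Of 28 genes known as targets of STAT3, 26 were tested at the basal level and 3 were lower, and 27 were tested after TNF-α and 6 were lower, with none higher, where 5.62% and 8.92% of all genes tested were lower and 4.6% and 7.26% higher. The median log2 fold change was -0.38 and -0.32, beside 0.00 and -0.01 over all genes. Positive values were held by 9 of the 26 and 7 of the 27. Among these was the astrocyte marker Gfap, which was not called but lay higher in GSTM1 KD cells without overlap. It was at 2333 to 4184 against 707 to 2206 TPM at the basal level, and 2143 to 3828 against 651 to 2016 TPM after TNF-α. Timp1, an inhibitor of matrix metalloproteinases, was lower in both states (-1.57 ± 0.26 and -1.57 ± 0.18, SE, edgeR adjusted p = 0.0277 and 0.0122). Serpina3n, a protease inhibitor and marker of reactive astrocytes, was also lower in both (-0.78 ± 0.15 and -0.85 ± 0.17, SE, edgeR adjusted p = 0.0377 and 0.0303). Junb, an AP-1 subunit, was lower at the basal level, and Myc, Mcl1, Il4ra and Saa3 after TNF-α, where Saa3 had 9 and 4 reads against 40 and 30 and did not pass in the fit on all 8 libraries (edgeR adjusted p = 0.0757). Timp1 and several other targets are also regulated by other pathways.

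Targets that rose with TNF-α were Bcl3, Cebpb and Junb in both knockdowns. Bcl3, a nuclear partner of NF-κB, had log2 fold changes of 2.44 in both (± 0.26 and 0.28, SE, edgeR adjusted p = 0.00609 and 0.00547). Junb had 1.94 ± 0.12 and 2.37 ± 0.12 (SE, edgeR adjusted p = 0.000589 and 0.000268). With the 4 control KD libraries alone Junb passed, whereas Bcl3 and Cebpb did not (edgeR adjusted p = 0.0551 and 0.0878). For the GSTM1 KD response Bcl3 lost its call without either GSTM1 KD basal library (0.0515 and 0.0742) and Cebpb without any 1 of the 4 GSTM1 KD libraries (0.0661 to 0.243).

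**Figure D5:**
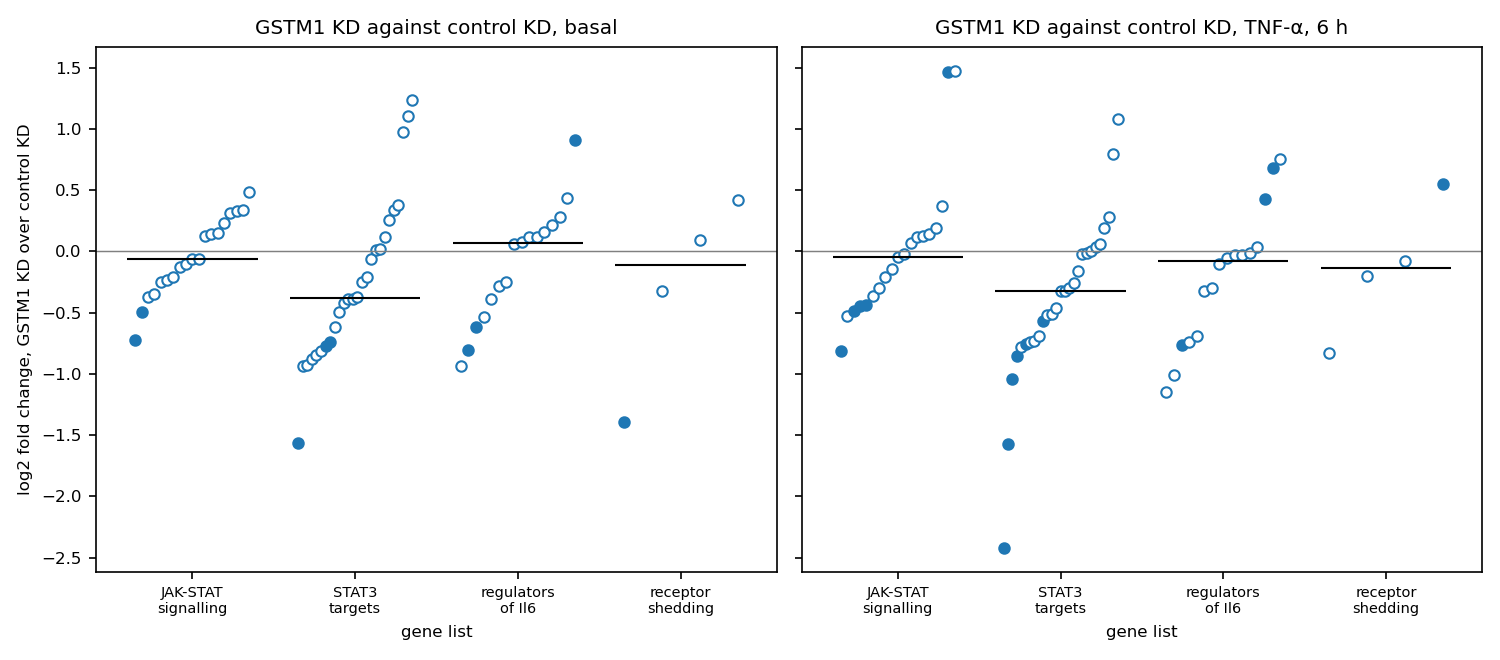
Log2 fold change in GSTM1 KD over control KD astrocytes of each tested gene in 4 lists, before (left) and after TNF-α (right); filled points passed an adjusted p of 0.05 and lines are list medians. The STAT3 targets have medians of -0.38 and -0.32, and the other lists have medians between -0.14 and 0.07.

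Regulators known to act on the Il6 gene or its mRNA were measured as a list of 16, all tested. At the basal level Rela and Zfp36 were lower and Atf3 higher in GSTM1 KD cells, and after TNF-α Rela was lower and Atf3 and Jun higher. Over all genes tested, 4.6% were higher and 5.62% lower at the basal level, and 7.26% and 8.92% after TNF-α. The list medians were 0.07 and -0.08 on the log2 scale. Rela, the NF-κB subunit p65, was at 98.7 and 91.6 CPM against 62.8 and 61.7 CPM before stimulation and reached 139 and 157 against 90.2 and 86.9 CPM after TNF-α. Its groups were well apart, with log2 fold changes of -0.61 ± 0.10 and -0.76 ± 0.10 (SE, edgeR adjusted p = 0.027 and 0.0152). Atf3, a repressor of inflammatory genes, was higher by 0.91 ± 0.16 and 0.68 ± 0.14 (SE, log2, edgeR adjusted p = 0.0299 and 0.0317), and after TNF-α it was at 0.47 and did not pass with the length offset (0.111), nor did Jun (0.0517). Zfp36, which binds AU-rich mRNAs for decay, was lower at the basal level (-0.80 ± 0.14, SE, edgeR adjusted p = 0.0296) and at -0.03 ± 0.13 (SE) after TNF-α. With TNF-α, 5 of the 16 rose in each knockdown, among them Nfkb1, Rela, Atf3 and Cebpb in both, where 2.1% and 2.35% of all genes tested were higher. With the 4 control KD libraries alone these 4 lost the control KD call (edgeR adjusted p 0.0878 to 0.155), and without any 1 of the 4 GSTM1 KD libraries they lost the GSTM1 KD call (0.0661 to 0.269). There Rela also missed the threshold when scaled by library size only (0.0512) and Atf3 with the length offset (0.0517).

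Of the 4 genes for shedding of IL-6 family receptors from the cell surface, Rhbdf2, which carries the protease ADAM17 to the surface, was lower at the basal level in GSTM1 KD cells (-1.39 ± 0.24, SE, edgeR adjusted p = 0.0296). It rose with TNF-α in both knockdowns (1.52 ± 0.26 and 2.11 ± 0.28, SE, edgeR adjusted p = 0.0273 and 0.0102), but the control KD call was lost with the 4 control KD libraries alone (0.179) and when leaving out any library other than replicate 1 of control KD TNF (0.0613 to 0.111). The GSTM1 KD call was lost without either GSTM1 KD basal library or replicate 1 of GSTM1 KD TNF (0.066 to 0.115). Adam10 was higher in GSTM1 KD cells after TNF-α (0.55 ± 0.12, SE, edgeR adjusted p = 0.0388).

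Across the 8 libraries, Il6 and Lif followed each other (Pearson r of log2 CPM 0.95), and Il6ra and Il11ra1 did so too (0.95). Clcf1 and Il6ra ran in opposite directions (r = -0.93). These values describe 8 libraries in 4 groups that share knockdown and stimulation. Among the 13376 genes compared, the closest patterns were those of Sdad1, Ankle2 and Poglut1 for Il6 (r 0.982 to 0.995), Pogk, Bfar and Wnt2b for Lif (0.991 to 0.997), BC031181, Tusc2 and Ywhah for Clcf1 (0.996 to 0.998), Hmga2, Tmem159 and Mical2 for Il11 (0.971 to 0.980) and Alcam, Mvd and Cdh13 for Ctf1 (0.985 to 0.989). For the receptors they were Lhfpl3, Phf14 and Pkig for Il6ra (0.991 to 0.992), Ube2h, Itpkb and Igsf3 for Il6st (0.976 to 0.986), Mapk15, Rab26 and Airn for Lifr (0.921 to 0.936), Tmbim6, Col6a1 and Sbf2 for Osmr (0.985 to 0.995) and Slc25a21, Dnaic1 and Ckb for Il11ra1 (0.996 to 0.997).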

How the data were processed

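RNA-seq libraries of primary mouse astrocytes (4 groups, 2 libraries each) were made with a directional kit. The authors mapped paired-end reads to GRCm38 with STAR (2.5.4b) and quantified genes with RSEM (1.3.0). The deposited tables give expected counts and TPM per gene and library, with an effective transcript length that differs between libraries. Expected counts were rounded to whole numbers. Genes were filtered with filterByExpr by group, scaled by TMM and tested with edgeR (4.0.16) quasi-likelihood F tests in R (4.3.3), with Benjamini-Hochberg adjustment over all genes tested and a threshold of 0.05. Knockdowns were compared on the 4 libraries of a state, and TNF-α responses and their difference on all 8, so the difference of 2 knockdown effects need not equal the interaction exactly. SE is the log2 fold change divided by the square root of F, and CPM are scaled by TMM. All 10 members are named, with genes of the listed pathways and the 3 genes of highest correlation of log2 CPM with each member. The members and gene lists were chosen with earlier results of these data known. DESeq2 (1.42.0), other scalings, filters, a replicate block, a length offset and leaving out each library were tried. The fits were also run on simulated counts with the same spread for all genes and no outlying library. That setting does not carry the replicate differences of these libraries, so it cannot show how the fits behave with them. Figures were drawn with matplotlib (3.10.9). Protein sequences were not used here. Some genes counted in the lists are not reported here by name.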

Additional observations from a re-analysis of the deposited data

How the results depend on the processing

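Calls over all genes at the basal level moved from 686 higher and 838 lower to 1115 and 1377 with DESeq2, 1791 and 2166 with no filter and 2342 and 2370 with the replicate block, and with TNF-α from 1059 and 1301 to 1292 and 1532, 2167 and 2373, and 2064 and 2238. Genes tested numbered 14899 and 14593 in the 2 states as reported and with the block. With DESeq2 or no filter they numbered 24716 and 24134. The counts of members and lists below are to be read beside these calls over all genes. Members called at the basal level numbered 3 in the fit as reported, 6 with no filter on low counts, 7 with the replicate block and 0 to 7 when leaving out each library. After TNF-α they numbered 6 (5 to 7 over the other settings, 6 with the replicate block) and 0 to 7 when leaving out each library. For the TNF-α response in control KD cells they numbered 2, 0 with the 4 libraries of that knockdown alone and 1 to 2 when leaving out each library, and in GSTM1 KD cells 2 and 0 to 2, with 0 without either GSTM1 KD basal library or replicate 1 of GSTM1 KD TNF. The difference in response gave 0 under every setting run, which is no sign of stability. A fit on 3 libraries of a state assumes that the lone library varies like the others. With all 8 libraries Il11 had edgeR adjusted p-values of 0.0428 (basal) and 0.0507 (TNF-α). Without replicate 1 of control KD TNF, Il11 and Il11ra1 had 0.0535 and 0.0616. STAT3 targets called between the knockdowns numbered 3 at the basal level (9 with DESeq2, 15 with no filter, 16 with the replicate block, 0 to 18 when leaving out each library) and 6 after TNF-α (10, 14, 13 and 0 to 15). Regulators of Il6 numbered 3 in both states (5, 6, 6 and 0 to 7, then 6, 8, 6 and 0 to 7), and Janus kinase and STAT genes 2 and 5 (2, 3, 3 and 0 to 6, then 6, 7, 8 and 0 to 9).

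The labels do not say what a replicate number marks. Deviations of libraries with the same number correlated at 0.284 between the knockdowns without stimulation and at 0.216 with it, and between the states at 0.575 in control KD and 0.33 in GSTM1 KD cells, over 2 pairs each. The replicate block added calls for Il6, Il11, Osmr and Il11ra1 at the basal level (edgeR adjusted p 0.00105 to 0.0393) and for Cntf in both states (0.000444 and 0.00442), and changed no other call of a member.

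Signs changed only for genes that passed no test under that setting, except Stat3 after TNF-α without replicate 2 of control KD TNF (0.44, edgeR adjusted p = 0.0276). Log2 fold changes turned for Ctf1 in the GSTM1 KD response (-0.00254 with DESeq2, -0.0025 with at least 10 counts in every library, -0.00299 with DESeq2 size factors, -0.0367 with library size only, -0.00703 with no filter, -0.26 with the length offset), Il6ra in the control KD response (0.0468, length offset), Lifr in the GSTM1 KD response (-0.00288, length offset), Il6 in the difference (0.0043, the other quasi-likelihood method) and Stat3 after TNF-α (0.0226 with library size only, 0.0293 with the replicate block, 0.089 with the length offset, 0.00338 with all 8 libraries).

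Leaving out each library, log2 fold changes whose sign turned ranged for GSTM1 KD against control KD at the basal level from -0.40 to 0.30 for Il6st, -0.39 to 0.32 for Lifr, -0.21 to 1.16 for Osmr, -0.14 to 1.05 for Socs3 and -0.36 to 0.30 for Stat3. They ranged for GSTM1 KD against control KD after TNF-α from -0.25 to 0.17 for Il6st, -0.10 to 1.27 for Osmr, -0.25 to 0.81 for Socs3 and -0.36 to 0.44 for Stat3. They ranged for the control KD response from -0.20 to 0.23 for Il11, -0.15 to 0.39 for Ctf1, -0.73 to 0.23 for Il6ra, -0.0496 to 0.67 for Il6st, -0.60 to 0.11 for Lifr and -0.50 to 1.17 for Osmr. They ranged for the GSTM1 KD response from -0.29 to 0.68 for Il11, -0.19 to 0.0117 for Clcf1 and -0.22 to 0.27 for Ctf1. They ranged for the difference in response from -0.72 to 0.41 for Il6, -0.32 to 0.64 for Il11, -0.00875 to 0.19 for Clcf1, -0.38 to 0.16 for Ctf1, -0.36 to 0.36 for Il6st, -0.72 to 0.95 for Osmr and -0.0675 to 0.23 for Il11ra1.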
